A study of Rattus norvegicus with 11 samples.

Results

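The natriuretic peptides and the fetal sarcomere genes of the rat heart were examined across 11 RNA-seq libraries of cardiac tissue from Sprague Dawley rats. They were 5 genes of the 32883 in the count table: Nppa (ENSRNOG00000008176), Nppb (ENSRNOG00000008141), Myh6 (ENSRNOG00000025757), Myh7 (ENSRNOG00000016983) and Acta1 (ENSRNOG00000017786). The genes were chosen by identifier as members of the cardiac stress programme and not by a cut on their values, but with earlier results of these data known. Gene names were assigned with that choice, since the table gives identifiers only and 0 of them matched the reference annotation. As a check, the gene model length that the deposited counts and FPKM values (reads scaled by gene length and library total) imply was 887 bases for Nppa, 672 for Nppb, 6028 for Myh6, 5923 for Myh7 and 1436 for Acta1. The natriuretic peptides were thus under 1000 bases and the myosins between 5500 and 6500, and no identifier was dropped. Length cannot tell Nppa from Nppb or Myh6 from Myh7. All 5 genes passed the filter on low counts, with at least 2711 counts in the library where Acta1 was lowest, 2732 for Nppb, 4321 for Nppa, 8433 for Myh6 and 53727 for Myh7.

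The 4 groups were control (2 libraries, 115 and 95, with no treatment named), isoproterenol (3 libraries, 79, 98 and 119), canagliflozin (3 libraries, 78, 133 and 143) and exercise (3 libraries, 103, 113 and 57). Isoproterenol, a beta-adrenergic agonist used to bring about heart failure in rodents, was given for 10 days at a daily dose of 5 mg/kg to all groups but control. The canagliflozin group also had 4 weeks of this inhibitor of renal glucose uptake at 3 mg/kg daily. The exercise group was exercised 60 min daily over 4 weeks. The series title speaks of canagliflozin combined with exercise, but the exercise libraries carry no label with the drug, so it cannot be told whether those rats received it. The labels give no age, no heart chamber and no vehicle, and do not say that each library was a separate animal. The p-values then speak only of spread from library to library. The order of treatments and the time of tissue collection are not given in the labels either. Time since isoproterenol may thus differ between groups and cannot be told apart from canagliflozin or exercise.

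Atrial and B-type natriuretic peptide are hormones that heart muscle releases when its wall is stretched, and they promote sodium loss and relax blood vessels. In the adult rat ventricle the fast alpha myosin heavy chain (Myh6) predominates, while the fetal ventricle uses the slower beta chain (Myh7). Under pressure or volume load the rodent heart is known to return towards the fetal pattern, with more Nppa, Nppb, Myh7 and skeletal alpha actin (Acta1) and less Myh6. These messages come mainly from heart muscle cells, and in whole tissue fewer such cells and less RNA per cell cannot be told apart.

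Library totals ran from 14742164 to 25034831 counts. Control library 95 stood apart from the other 10: it had counts in 14692 genes against 16916 to 17703, the share of counts in its 10 top genes was 42.5% against 22.6 to 34.3%, and its TMM factor, which corrects for a few genes taking many counts, was 0.568 against 0.910 to 1.23. The control group rests on this library and 1 other, so every comparison with control is given with and without it. Over tested genes, the Spearman correlation between gene model length and a library's deviation from the mean level ran from -0.227 in control library 95 to 0.388 in canagliflozin library 143. Of the 5 genes, the natriuretic peptides are short and the myosins long. Levels below are CPM, counts scaled to a common library size after TMM, unless said otherwise.

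Neither natriuretic peptide message was higher with isoproterenol than in control. The mean of Nppa was lowest in the isoproterenol group, that of Nppb in the canagliflozin and isoproterenol groups, and both were highest in control and exercise, but no difference passed the test. Nppa encodes the precursor of atrial natriuretic peptide. Its level was 1324 CPM in control library 115 and 3308 in control library 95, and 232, 1059.9 and 461 in isoproterenol libraries 79, 98 and 119. It was 438, 2678 and 1332 in canagliflozin libraries 78, 133 and 143, and 1773, 1412 and 3345 in exercise libraries 103, 113 and 57. Both control and all 3 exercise libraries lay above the 3 isoproterenol libraries, while the canagliflozin libraries spanned from within the isoproterenol range to well above it. The means were 2316 ± 1403 CPM (SD, n = 2) in control, 2177 ± 1028 (n = 3) in exercise, 1483 ± 1127 (n = 3) in canagliflozin and 584 ± 428 (n = 3) in isoproterenol. No 2 neighbours in this order differed by more than the larger of their SDs. Groups farther apart in the order were not compared in this way, here or for the other genes, and can differ by more. Nppa spanned 14.4-fold between isoproterenol library 79 and exercise library 57.

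Nppb encodes the precursor of B-type natriuretic peptide, the peptide measured in the clinic to diagnose heart failure. Its level was 342 and 470.2 CPM in control libraries 115 and 95, and 179, 265 and 168 in isoproterenol libraries 79, 98 and 119. In canagliflozin libraries 78, 133 and 143 it was 149, 239 and 167, and in exercise libraries 103, 113 and 57 it was 254, 296 and 644. Both control libraries lay above all isoproterenol and canagliflozin libraries, and all 3 exercise libraries lay above all canagliflozin libraries. Both separations depended on the TMM scaling. As a share of all counts, Nppb was 0.0267% in control library 95 and 0.0272% in exercise library 103. It was 0.0282% in canagliflozin library 133 and 0.0312% in isoproterenol library 98. The means were 406 ± 90.6 CPM (SD, n = 2) in control, 398 ± 214 (n = 3) in exercise, 204 ± 53.1 (n = 3) in isoproterenol and 185 ± 47.3 (n = 3) in canagliflozin, and neighbours in this order again differed by less than the larger SD. Scaled to gene length, Nppa exceeded Nppb in 10 of the 11 libraries. The ratio was 0.98 in isoproterenol library 79, had a median of 3.62 and reached 8.50 in canagliflozin library 133, so the 2 peptides did not keep a fixed proportion.

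**Figure D1:**
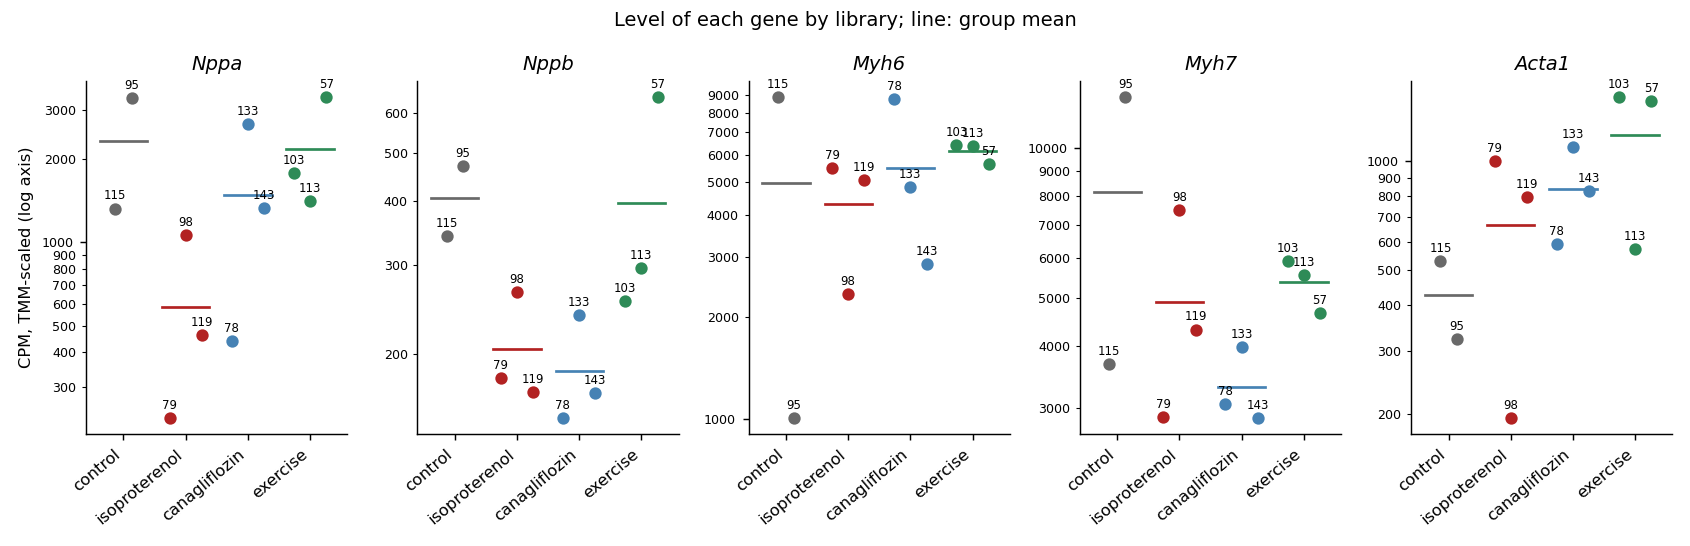
Level of each gene in each library (vertical axis, CPM on a log scale, with its own range per gene), by group on the horizontal axis; points carry the library number and lines are group means. Both control and all exercise points of Nppa lie above the isoproterenol points, whose highest is 1059.9 CPM, and control libraries 115 and 95 lie at opposite ends for Myh6 (8900.3 and 1006 CPM).

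Nppa and Nppb are neighbouring genes on rat chromosome 5 in the RefSeq annotation (GRCr8) and were the most alike pair of the 5 across libraries. Their upstream sequences are shown for that reason, with that of Acta1, which did not follow them. Each window holds the 250 bases before the annotated start, 5′ to 3′ on the gene's strand, from RefSeq (GRCr8). Capitals mark GATA (the core bound by GATA4), CATTCC (the MCAT core bound by TEAD factors) and the CArG box (bound by SRF), on either strand. The CArG box was searched only as CCWWWWWWGG, with W for A or T.
Nppa, chr5:163711934-163712183, plus strand: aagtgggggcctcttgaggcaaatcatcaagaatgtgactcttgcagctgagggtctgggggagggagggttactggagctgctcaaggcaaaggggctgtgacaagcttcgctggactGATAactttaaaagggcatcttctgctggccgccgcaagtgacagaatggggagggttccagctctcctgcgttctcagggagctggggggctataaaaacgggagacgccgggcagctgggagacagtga
Nppb, chr5:163699758-163700007, plus strand: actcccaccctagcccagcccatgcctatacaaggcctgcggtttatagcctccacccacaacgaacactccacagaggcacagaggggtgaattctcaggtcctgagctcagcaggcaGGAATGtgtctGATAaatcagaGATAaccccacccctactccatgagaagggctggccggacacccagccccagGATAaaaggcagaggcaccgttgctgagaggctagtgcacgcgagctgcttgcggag
Acta1, chr19:68784195-68784444, minus strand: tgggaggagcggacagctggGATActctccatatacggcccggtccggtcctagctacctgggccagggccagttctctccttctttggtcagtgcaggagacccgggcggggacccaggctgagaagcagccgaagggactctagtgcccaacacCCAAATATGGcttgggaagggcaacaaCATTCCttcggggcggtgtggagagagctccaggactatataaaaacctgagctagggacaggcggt

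GATA occurred 1 time in the Nppa window, 3 times in the Nppb window and 1 time in the Acta1 window, and 55.9% of 33469 RefSeq windows of this length held it. CATTCC occurred 1 time each in Nppb, where it lies on the reverse strand and reads GGAATG above, and in Acta1, against 12.1% of windows. The CArG box in its strict form was found 1 time, in Acta1, 94 to 85 bases before the start, and 1.5% of windows held one. Forms that differ from it by 1 base were not searched, so the other windows may hold a looser box. None of the marked matches overlapped another. These matches describe the letters of these windows and not binding.

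The myosin heavy chains are the motor proteins of the thick filament, and their genes also lie side by side, on chromosome 15. Their levels separated single libraries far more than they separated groups. Myh6 was at 8900.3 CPM in control library 115 and at 1006 in control library 95. It was at 5495, 2340.2 and 5080.3 in isoproterenol libraries 79, 98 and 119, at 8803, 4837 and 2865 in canagliflozin libraries 78, 133 and 143, and at 6413, 6402 and 5650.5 in exercise libraries 103, 113 and 57. The 2 controls held the highest and the lowest value of all, and the 3 exercise libraries lay close together and just above the isoproterenol libraries. The means were 6155 ± 437 CPM (SD, n = 3) in exercise, 5501 ± 3024 (n = 3) in canagliflozin, 4953 ± 5582 (n = 2) in control and 4305 ± 1714 (n = 3) in isoproterenol, and no neighbours in this order differed by more than the larger SD.

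Myh7 was at 3671 and 12681 CPM in control libraries 115 and 95, and at 2879, 7516 and 4315 in isoproterenol libraries 79, 98 and 119. It was at 3048, 3987 and 2861 in canagliflozin libraries 78, 133 and 143, and at 5925, 5557 and 4649.7 in exercise libraries 103, 113 and 57. All exercise libraries lay above all canagliflozin libraries, while the control and isoproterenol groups each spanned both. As a share of all counts, however, exercise library 57 (0.446%) lay below canagliflozin library 133 (0.471%). The means were 8176 ± 6371 CPM (SD, n = 2) in control, 5377 ± 656 (n = 3) in exercise, 4903 ± 2374 (n = 3) in isoproterenol and 3299 ± 603 (n = 3) in canagliflozin. Neighbours in this order differed by less than the larger SD.

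The ratio of Myh7 to Myh6 counts is the usual summary of the fetal shift, and it needs no scaling to library size. It was 0.413 in control library 115 and 12.6 in control library 95, so 1 control had mostly the adult chain and the other mostly the fetal chain. In isoproterenol libraries 79, 98 and 119 it was 0.524, 3.21 and 0.849. In canagliflozin libraries 78, 133 and 143 it was 0.346, 0.824 and 0.999, and in exercise libraries 103, 113 and 57 it was 0.924, 0.868 and 0.823. Library 95 and isoproterenol library 98 were the only 2 above 1, and the other 9 lay between 0.346 and 0.999. Myh7 made up 92.6% of both myosins in library 95 (95% Wilson interval 92.5 to 92.8%) and 76.3% in library 98 (76.1 to 76.4%), against 29.2% in library 115 (29.0 to 29.4%). These intervals cover counting error only.

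The 4 groups did not differ in this ratio beyond the spread between libraries. The mean log2 ratio was 1.19 ± 3.49 (SD, n = 2) in control, 0.17 ± 1.35 (n = 3) in isoproterenol, -0.60 ± 0.814 (n = 3) in canagliflozin and -0.20 ± 0.0836 (n = 3) in exercise. The groups accounted for 19.3% of the variance, with an exact permutation p of 0.721 over all 92400 ways to assign the libraries. Without control library 115, which leaves library 95 as the only control, the groups accounted for 74.1% (exact permutation p = 0.0707), and without library 95 for 27.8% (exact permutation p = 0.571). Two-sided exact permutation tests of 7 comparisons between groups each gave an adjusted p of 0.9. With 3 libraries against 3 the smallest p such a test can give is 0.1, and with 3 against 2 it is 0.2. The difference was -1.02 for isoproterenol against control (SE 2.10, exact permutation p = 0.8), -0.78 for canagliflozin against isoproterenol (SE 0.913, exact permutation p = 0.5) and -0.37 for exercise against isoproterenol (SE 0.784, exact permutation p = 0.9). From counts summed over all libraries of each group the first was 0.0796. Without control library 95 it became 1.45, and without isoproterenol library 98 the third became 0.38, so the direction of each was set by 1 library. For canagliflozin against isoproterenol it stayed negative but was -0.02 without isoproterenol library 98. Against control the difference was -1.79 (SE 1.94, exact permutation p = 0.6) for canagliflozin and -1.39 (SE 1.84, exact permutation p = 0.8) for exercise. Without control library 95 they became 0.67 and 1.08. The exercise libraries were alike in this ratio, which ran from 0.823 to 0.924, but with 3 libraries a group no test of that narrow spread was made.

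The sum of both myosins varied less than either gene. It ran from 5726 CPM in canagliflozin library 143 to 13688 in control library 95, a 2.39-fold range with a coefficient of variation of 22.2%, against 47.1% for Myh6 and 55.3% for Myh7. In the 2 controls the sum was 12572 and 13688 CPM while the ratio differed. That the sums were so close depended on the TMM factor of library 95 (0.568). As shares of all counts, Myh6 and Myh7 were 0.918% and 0.379% in library 115. They were 0.0572% and 0.721% in library 95, a smaller share for both together. The 2 coding sequences are known to be very similar. The labels do not say how reads that fit both genes were counted, and the split between them is uncertain to that extent.

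**Figure D2:**
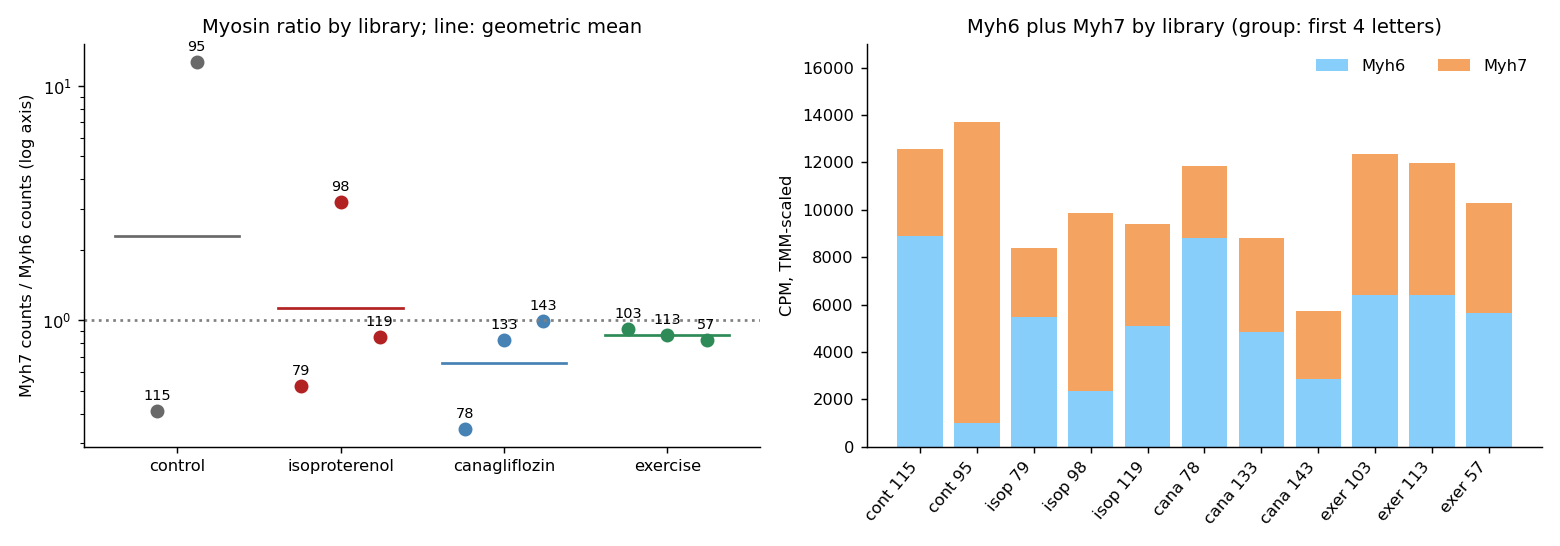
Left, Myh7 counts divided by Myh6 counts in each library (log axis), with the geometric mean of each group as a line and 1 as a dotted line. Right, CPM of Myh6 and Myh7 stacked for each library. Control library 95 (12.6) and isoproterenol library 98 (3.21) lie above 1, while the stacked sum, which depends on the TMM scaling, stays between 5726 and 13688 CPM.

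Acta1 encodes skeletal alpha actin, which the fetal heart uses and the adult rodent heart largely replaces by cardiac actin. The actin genes are also very similar, and reads shared with them make its level uncertain to the same extent. It was at 529 and 324 CPM in control libraries 115 and 95, and at 1004, 195 and 799 in isoproterenol libraries 79, 98 and 119. It was at 592, 1095 and 827 in canagliflozin libraries 78, 133 and 143 and at 1504, 574 and 1463 in exercise libraries 103, 113 and 57. All canagliflozin and exercise libraries lay above both controls, by a small margin for exercise library 113 (574 against 529). The lowest Acta1 value was in isoproterenol library 98, 1 of the 2 libraries with the highest Myh7 to Myh6 ratio, and the second lowest was in library 95, the other one. The 2 fetal sarcomere genes were therefore at opposite ends in these libraries. The means were 1180.2 ± 526 CPM (SD, n = 3) in exercise, 838 ± 251 (n = 3) in canagliflozin, 666 ± 420.3 (n = 3) in isoproterenol and 426 ± 145 (n = 2) in control, and neighbours differed by less than the larger SD.

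Per kilobase of gene model, the median level over the 11 libraries was 1501 CPM per kilobase for Nppa, 912 for Myh6, 729 for Myh7, 556 for Acta1 and 378 for Nppb. By deposited FPKM, Nppa ranked between 17 and 323 among all genes, Nppb between 98 and 392, Myh6 between 44 and 677, Myh7 between 74 and 186 and Acta1 between 67 and 563. Heart muscle genes of this kind were thus among the abundant messages of every library, as the tissue label states. Markers of atrium, of ventricle and of other cell types were not analysed here, because the table names no genes, and their part in these values was not tested.

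Isoproterenol was compared with control to ask what the heart failure model changed. The estimates for both natriuretic peptides, Myh6 and Myh7 were negative and that for Acta1 was positive. The log2 fold change was -1.99 (SE 0.819) for Nppa, -0.99 (SE 0.449) for Nppb, -0.20 (SE 0.795) for Myh6, -0.74 (SE 0.575) for Myh7 and 0.64 (SE 0.679) for Acta1. The edgeR quasi-likelihood test called 0 of the 5 genes at an adjusted p under 0.05, and 0% of all 14979 tested genes. The edgeR adjusted p was 0.84 for Nppa and Nppb, 0.97 for Myh6, 0.846 for Myh7 and 0.87 for Acta1. DESeq2 and limma-voom also called 0 of the 5, and 0% of the genes they tested. At an unadjusted edgeR p under 0.05 there was 1 of the 5, Nppa, against 5.21% of all tested genes, and 0 of the 5 without control library 95 or isoproterenol library 79 or 119. There were 2, Nppa and Nppb, with RLE in place of TMM and without isoproterenol library 98, and also by the unadjusted p of DESeq2 and of limma-voom. There were 0 with library totals as the only scaling, with the length trend as an offset and with only the compared groups fitted. Nppa and Nppb were lower without overlap in the isoproterenol group, as were 5.47% of all genes. As a share of all counts, without TMM, the Nppb libraries of the groups overlapped. The median of the 5 estimates was -0.74, against 0.07 over all tested genes. Without control library 95 the estimates were -1.17 for Nppa, -0.74 for Nppb, -1.04 for Myh6, 0.43 for Myh7 and 0.34 for Acta1, so the estimate for Myh7 changed sign and none of the 5 was called. With library 95 as the only control, Myh6 was at 2.11 and Myh7 at -1.36, with edgeR adjusted p of 0.0936 and 0.114. With library totals as the only scaling, Nppb was at -0.53 and Myh7 at -0.0561, and with the length trend as an offset they were at -0.62 and -1.13.

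Canagliflozin was compared with isoproterenol alone, though time since isoproterenol may also differ between these groups. The estimate was largest for Nppa, at 1.34 (SE 0.751), and was -0.14 (SE 0.407) for Nppb, 0.35 (SE 0.715) for Myh6, -0.57 (SE 0.522) for Myh7 and 0.33 (SE 0.597) for Acta1, all as log2 fold changes. edgeR called 0 of the 5 genes and 0% of all genes, with an adjusted p of 0.999 for each of the 5. limma-voom called 0 of the 5 and 0% of all genes, and DESeq2 called 0 of the 5 and 0.00963% of the genes it tested. Below an unadjusted edgeR p of 0.05 were 0 of the 5, against 3.3% of all genes. Without isoproterenol library 98 or canagliflozin library 78 it was 1, Nppa, as it was by the unadjusted p of DESeq2. It was 0 under the other scalings, with limma-voom and with any other single library of these groups left out. For each of the 5 genes the libraries of the groups overlapped, while in 9.48% of all genes they did not. The median of the 5 estimates was 0.33, against -0.01 over all tested genes. Without isoproterenol library 98 the estimate for Nppa was 2.10, and those for Nppb (0.09) and Acta1 (-0.11) changed sign. Without canagliflozin library 133 or 78 the estimate for Nppa was 0.60 or 1.78.

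The exercise group was set against isoproterenol in the same way. The estimates for all 5 genes were positive, for the adult myosin as well as for the fetal genes. The log2 fold change was 1.90 (SE 0.763) for Nppa, 0.96 (SE 0.411) for Nppb, 0.52 (SE 0.716) for Myh6, 0.13 (SE 0.521) for Myh7 and 0.83 (SE 0.600) for Acta1. edgeR called 0 of the 5 genes and 0% of all genes, and each of the 5 had an adjusted p of 1. DESeq2 and limma-voom called 0 of the 5 and 0% of the genes they tested. Unadjusted, the edgeR p was under 0.05 for 2 of the 5, Nppa and Nppb, against 1.48% of all genes. It was under 0.05 for 0 of the 5 without exercise library 57, isoproterenol library 79 or isoproterenol library 119. With library totals as the only scaling, the length trend as an offset or only the compared groups fitted, it was under 0.05 for 1, Nppa. Nppa and Myh6 were higher without overlap in the exercise group, as were 4.14% of all genes. The median of the 5 estimates was 0.83, against -0.01 over all tested genes. Without exercise library 57 the estimates were 1.45 for Nppa and 0.43 for Nppb, and without isoproterenol library 98 they were 2.65 and 1.20. Without isoproterenol library 79 the estimate for Myh7 was -0.12.

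The exercise and canagliflozin groups were set against each other to ask whether their differences from isoproterenol differed. All 5 estimates were positive for exercise, with log2 fold changes of 0.55 (SE 0.740) for Nppa, 1.11 (SE 0.412) for Nppb, 0.16 (SE 0.714) for Myh6, 0.70 (SE 0.523) for Myh7 and 0.49 (SE 0.597) for Acta1. edgeR called 0 of the 5 genes and 0% of all genes, with an adjusted p of 0.999 for each of the 5, so no difference between the 2 treatments was shown for any of them. DESeq2 and limma-voom called 0 of the 5 and 0% of the genes they tested. Unadjusted, the edgeR p was under 0.05 for 1 of the 5, Nppb, against 2.42% of all genes. It was under 0.05 for 0 of the 5 without exercise library 57 or canagliflozin library 78 or 143. With library totals as the only scaling or the length trend as an offset it was also 0 of the 5. With only the compared groups fitted there were 2, Nppb and Myh7. Nppb and Myh7 were higher without overlap in the exercise group, as were 6.55% of all genes. As shares of all counts, without TMM, the libraries overlapped for both genes. Without exercise library 57 the estimate for Nppb was 0.57.

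**Figure D3:**
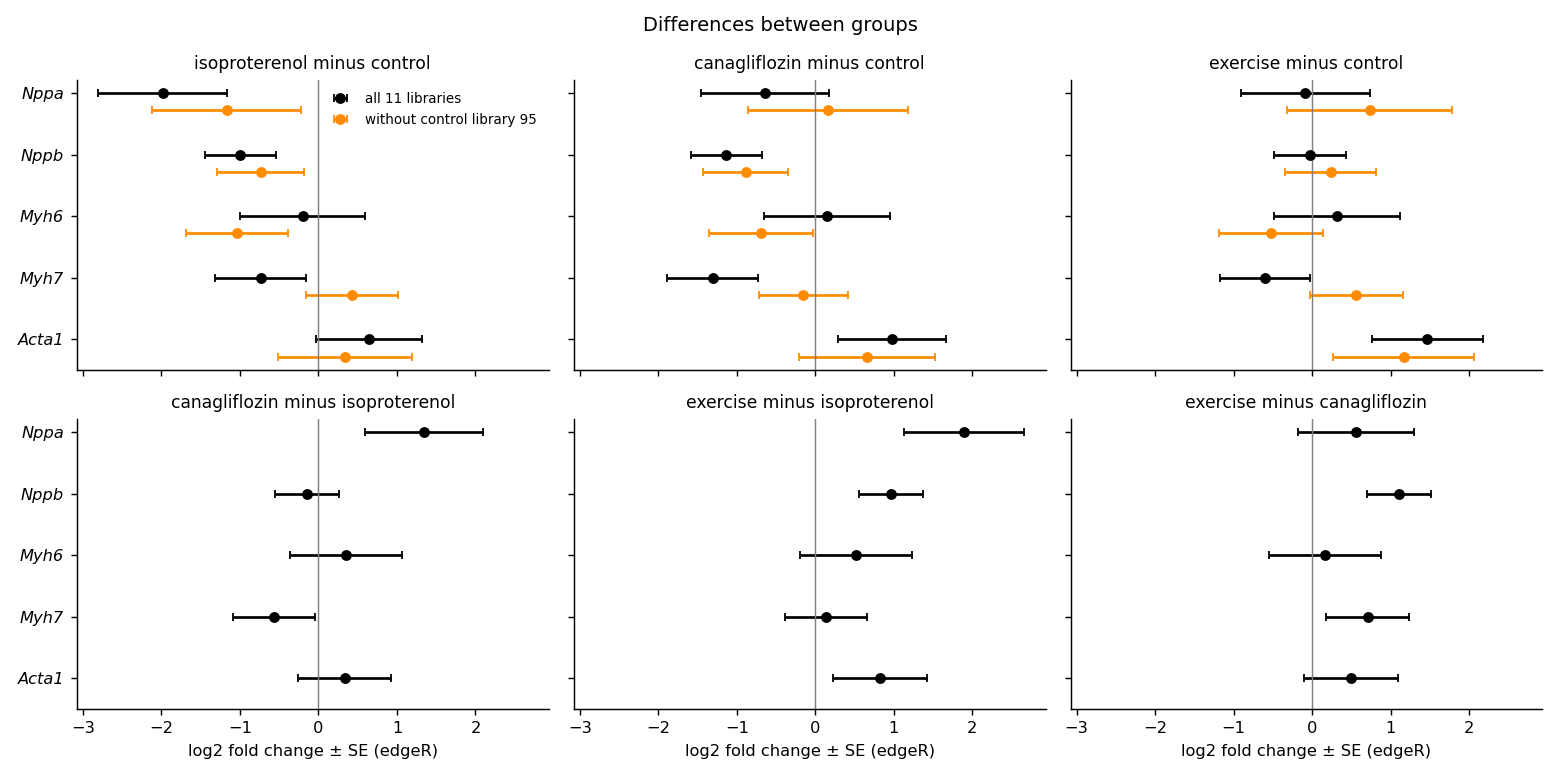
Estimated log2 fold change of each gene (horizontal axis, edgeR, bars are ± 1 SE) in 6 comparisons, with all 11 libraries in black and without control library 95 in orange where control is compared. For isoproterenol against control the estimate for Myh7 moves from -0.74 to 0.43 when library 95 is left out, while those for Nppa and Nppb stay negative.

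The canagliflozin and exercise groups were also compared with control. These comparisons share the 2 control libraries with each other and with the one above, so their values are not independent. For canagliflozin the log2 fold changes were -0.64 (SE 0.816) for Nppa, -1.13 (SE 0.449) for Nppb, 0.15 (SE 0.801) for Myh6, -1.31 (SE 0.574) for Myh7 and 0.97 (SE 0.687) for Acta1. edgeR called 0 of the 5 and 0% of all genes, and the adjusted p was 0.328 for Nppb and 0.34 for Myh7. DESeq2 called 0 of the 5 and 1.44% of the genes it tested, and limma-voom called 0 of the 5 and 0% of all genes. Below an unadjusted edgeR p of 0.05 were 2 of the 5, Nppb and Myh7, beside 14.4% of all genes, and 0 of the 5 without control library 95, canagliflozin library 78 or canagliflozin library 143. Nppb was lower without overlap, as were 10.8% of all genes, and Acta1 was higher without overlap, as were 15.6%. As a share of all counts, without TMM, the Nppb libraries of the groups overlapped. Without control library 95 the estimates were -0.89 for Nppb, -0.16 for Myh7, 0.66 for Acta1, 0.16 for Nppa and -0.69 for Myh6, and those for Nppa and Myh6 had thus changed sign. With library totals as the only scaling Nppb was at -0.56 and Myh7 at -0.57, and 0 of the 5 had an unadjusted edgeR p under 0.05. With the length trend as an offset Nppb was at -0.56 and Myh7 at -1.86, and 1 of the 5, Myh7, had an unadjusted edgeR p under 0.05. With library 95 as the only control, Myh7 was called at -1.93 (edgeR adjusted p = 0.0284), in a fit that called 3900 genes in all.

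For exercise against control the estimates were near 0 for Nppa, at -0.09 (SE 0.823), and Nppb, at -0.03 (SE 0.455). They were 0.31 (SE 0.805) for Myh6, -0.60 (SE 0.576) for Myh7 and 1.47 (SE 0.702) for Acta1. edgeR called 0 of the 5 and 0% of all genes, with adjusted p from 0.852 for Acta1 to 0.992 for Nppb. DESeq2 called 0 of the 5 and 0.495% of the genes it tested, and limma-voom called 0 of the 5 and 0% of all genes. At an unadjusted edgeR p under 0.05 there were 0 of the 5, against 4.85% of all genes. With library totals as the only scaling or without exercise library 113 it was 1, Acta1, as it was by the unadjusted p of DESeq2. It was 0 without control library 95. Acta1 was higher without overlap, as were 10.4% of all genes. Without control library 95 the estimates were 0.73 for Nppa, 0.23 for Nppb, -0.52 for Myh6, 0.56 for Myh7 and 1.17 for Acta1, and the sign was kept for Acta1 alone.

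When the mean of the 3 isoproterenol-treated groups was set against control, the log2 fold changes were -0.91 (SE 0.663) for Nppa, -0.72 (SE 0.371) for Nppb, 0.09 (SE 0.688) for Myh6, -0.88 (SE 0.469) for Myh7 and 1.03 (SE 0.617) for Acta1. edgeR called 0 of the 5 and 0% of all genes, with adjusted p from 0.495 for Nppb to 0.968 for Myh6. DESeq2 called 0 of the 5 and 0.757% of the genes it tested, and limma-voom 0 of the 5 and 0% of all genes. At an unadjusted edgeR p under 0.05 there were 0 of the 5, beside 10.9% of all genes. With the length trend as an offset it was 1, Myh7, as it was by the unadjusted p of DESeq2. Without isoproterenol library 98 there were 2, Myh7 and Acta1, without exercise library 57 there was 1, Nppb, and without control library 95 there were 0. For each of the 5 the groups overlapped, while they did not in 4.13% of all genes. Without control library 95 the estimates were -0.09 for Nppa, -0.46 for Nppb, -0.75 for Myh6, 0.28 for Myh7 and 0.72 for Acta1, so those for both myosins had changed sign and that for Nppa was near 0. With library totals as the only scaling they were -0.26 for Nppa, -0.24 for Nppb and -0.20 for Myh7. The log2 Myh7 to Myh6 ratio differed by -1.40 (SE 1.11, exact permutation p = 0.327, smallest possible 0.0364) and by 1.07 without control library 95. With library 95 as the only control, edgeR called Myh6 at 2.40 (adjusted p = 0.0476) and Myh7 at -1.50 (adjusted p = 0.0403), among 3949 genes in all.

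Over libraries, Nppa and Nppb were the pair that varied together most. For log2 CPM over the 11 libraries Pearson's r was 0.762 (permutation p = 0.00653, adjusted over 10 pairs 0.0653) and Spearman's rho was 0.673 (permutation p = 0.0285, adjusted 0.190). The pair therefore missed the threshold after adjustment. Its r was 0.726 without the 2 libraries farthest from the Nppa median (79 and 78), 0.715 without control library 95 and 0.751 with group means removed. Nppb and Myh7 had r of 0.591 (permutation p = 0.0553, adjusted 0.184) and rho of 0.645 (permutation p = 0.038, adjusted 0.190), and r was 0.591 without libraries 57 and 95, 0.451 without library 95 alone and 0.344 with group means removed. All levels share library, depth and scaling.

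The myosins ran against each other more strongly in r than in rho. Myh6 and Myh7 had r of -0.688 (permutation p = 0.0224, adjusted 0.112) but rho of -0.291 (permutation p = 0.384, adjusted 0.661), and without libraries 95 and 98 r was 0.219, so the relation rested on those 2 libraries. With group means removed, r was -0.808 for Myh6 and Myh7 (permutation p = 0.00332, adjusted 0.0332) and the adjusted permutation p of Nppa and Nppb was 0.0410, and these 2 pairs then passed the threshold. Removing group means makes the 2 control values of each gene mirror images and leaves fewer independent values than libraries. The permutation does not allow for that, so these p-values may be too small. Both pairs also passed without canagliflozin library 143, and Nppa with Nppb passed without canagliflozin library 133. Without libraries 95 and 98 the relations of Acta1 to the myosins turned sign. Its r of 0.524 with Myh6 became -0.353 and its r of -0.508 with Myh7 became 0.313. Acta1 had r of 0.0360 with Nppa and -0.0501 with Nppb, the weakest of the 10 pairs.

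**Figure D4:**
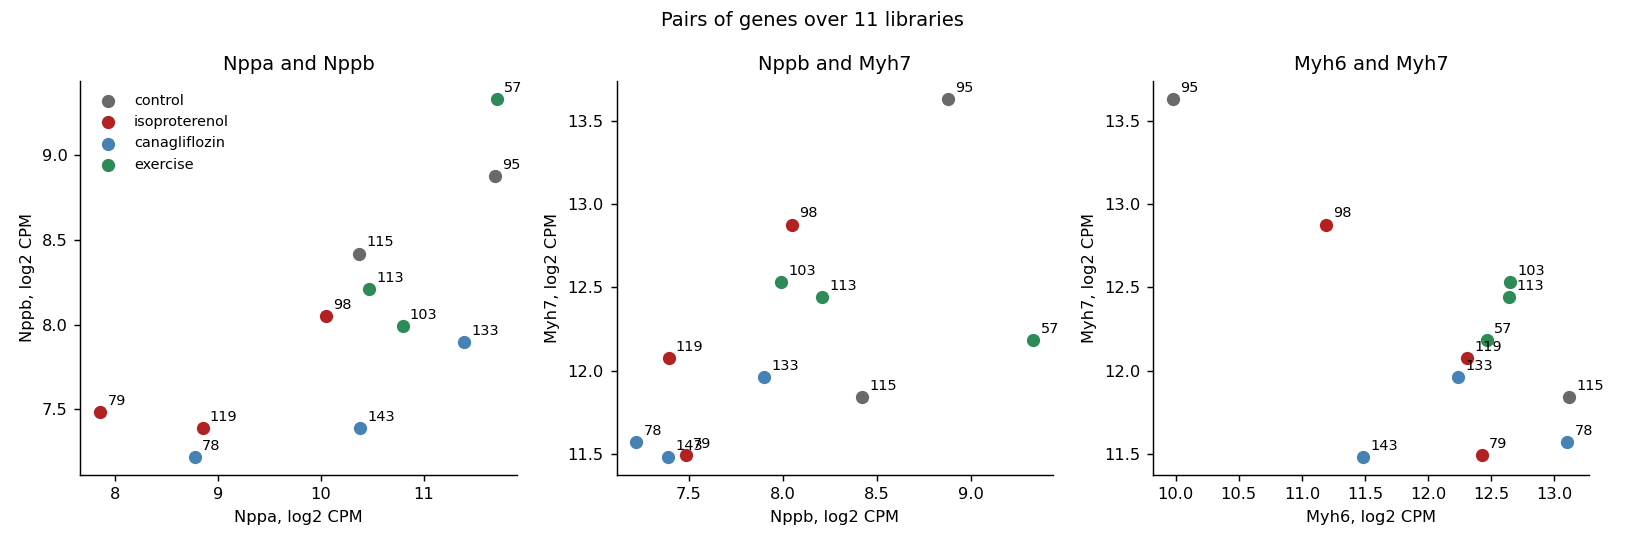
Log2 CPM of 3 pairs of genes, each point 1 library with its number, coloured by group. Nppa and Nppb spread along a diagonal (r = 0.762), whereas the slope of Myh6 against Myh7 (r = -0.688) rests on libraries 95 and 98, without which r is 0.219.

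Among 14974 tested genes outside the 5, the gene most alike to each over the 11 libraries was found by Pearson's r of log2 CPM. It was ENSRNOG00000013220 for Nppa (r = 0.935), ENSRNOG00000032300 for Nppb (r = 0.919), ENSRNOG00000053231 for Myh6 (r = 0.967), ENSRNOG00000028822 for Myh7 (r = 0.946) and ENSRNOG00000023230 for Acta1 (r = 0.897). The files pair none of these identifiers with a name. They were picked as the highest of many, so r is a description only, and ENSRNOG00000032300 was at 0 to 2.97 CPM. By the same measure Nppb ranked 86 for likeness to Nppa and Nppa ranked 37 for likeness to Nppb.

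The spread between libraries of 1 group differed among the 5 genes and, for the myosins, rested on the control pair. The SD of log2 CPM within groups, pooled over the 4 groups, was 1.04 for Nppa, 1.01 for Myh6, 0.859 for Acta1, 0.628 for Myh7 and 0.484 for Nppb, against a median of 0.549 over tested genes. Among the 500 most abundant genes, 91.4% had a smaller spread than Nppa, 89.0% than Myh6, 76.8% than Acta1, 53.6% than Myh7 and 31.6% than Nppb. With either control library left out, so that no control pair entered, the SD was 1.06 for Nppa, 0.905 for Acta1, 0.614 for Myh6, 0.506 for Nppb and 0.440 for Myh7, against a median of 0.447. The wide spread of Myh6 thus came from the 2 controls, and the order of Nppb and Myh7 turned with them. Without isoproterenol library 98 the SD of Acta1 was 0.570.

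**Figure D5:**
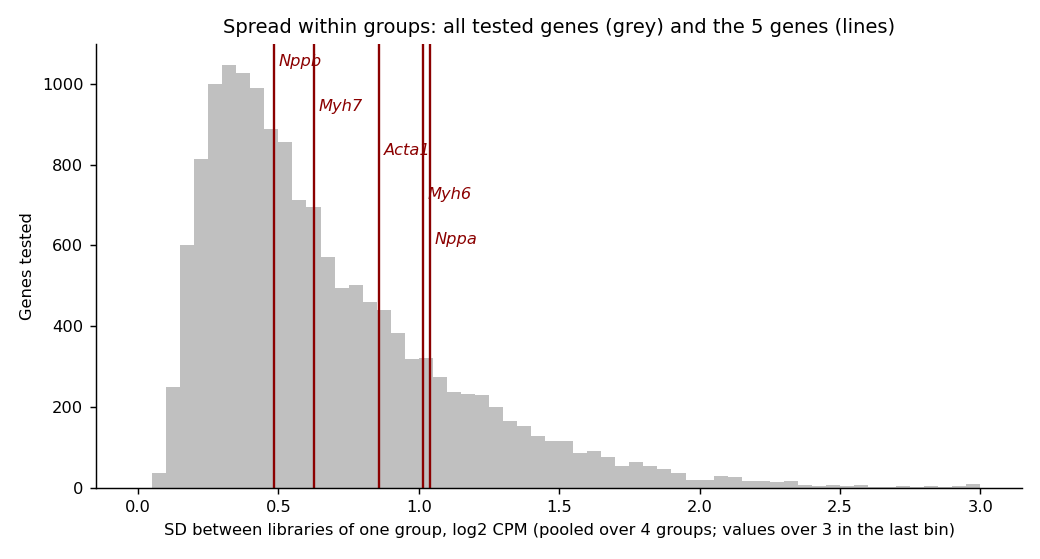
Distribution over tested genes of the SD of log2 CPM between libraries of 1 group (horizontal axis; grey bars count genes, vertical axis), with a line for each of the 5 genes. Nppa (1.04) and Myh6 (1.01) lie in the upper tail and Nppb (0.484) below the median of 0.549.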

How the data were processed

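RNA-seq of rat cardiac tissue was analysed from 1 deposited table, with 1 count and 1 FPKM column per library, matched by the library number in the labels. CASAVA 1.8 and TopHat2 2.0.6 were used, per the submitters' processing notes. For the counter, strand setting, build and annotation nothing is given in the sources used here. The deposited counts are raw whole numbers per gene, per the file headers. The deposited FPKM values, made by the authors, are scaled by gene length and library total, and gave gene lengths and ranks only.

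The counts of all 32883 genes were filtered with filterByExpr (14979 kept) and fitted with edgeR 4.0.16 (R 4.3.3), with TMM factors, 4 group means and a robust quasi-likelihood test. Benjamini-Hochberg adjustment ran over all tested genes, with calls at an adjusted p under 0.05. SEs of fold changes come from the F statistic. Log2 CPM used a prior count of 2, and correlations 100000 permutations. DESeq2 1.42.0, limma-voom (limma 3.58.1), other scalings, no filter, the length trend as an offset, fits restricted to the compared groups and the removal of single libraries were alternatives. The fit was run on simulated counts with much less spread between libraries than here. That run checked the code and the direction of calls, and says nothing of power or error rate in these data. A ratio of myosin counts per library was tested by exact permutation. Figures used matplotlib 3.10.9.

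The members, lists and alternatives were chosen with earlier results of these data known. The genes named were the 5 members and, for each, the 1 gene most alike to it. The lists of related genes and of markers for other cells are not analysed here, since 0 identifiers matched a symbol. Library 98, the removal of libraries 95 and 98 together, and the spread and the unadjusted counts without single libraries were added after the values were seen.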

Additional observations from a re-analysis of the deposited data

How the results depend on the processing

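No paired analysis was possible because the groups share no library number. The count of the 5 genes called stayed at 0 under every alternative for isoproterenol, canagliflozin and exercise against each other and for isoproterenol and exercise against control. It ran from 0 to 1 for canagliflozin against control and from 0 to 2 for all isoproterenol-treated groups against control when 1 library was left out, with the calls made where library 95 was the only control, a lone sample assumed to vary like the other groups. Scaling by library totals alone moved the median log2 fold change of all genes against control to 0.40 for isoproterenol, 0.54 for canagliflozin and 0.40 for exercise. Under it the estimates changed sign for Nppa with canagliflozin against control (0.10) and, with exercise against control, for Nppa (0.45), Nppb (0.38) and Myh7 (0.0358). With the length trend as an offset they changed sign for Nppb with canagliflozin against isoproterenol (0.0569) and for Nppa (0.10) and Nppb (0.23) with exercise against control. With no filter, Nppb with exercise against control was 0.00313, and with limma-voom Myh6 with isoproterenol against control was 0.53.

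Without libraries 95 and 98, Nppb was 0.0711 and Acta1 -0.13 for canagliflozin against isoproterenol, Nppa 0.15 and Myh6 -0.71 for canagliflozin against control, and Nppa 0.73, Nppb 0.23, Myh6 -0.53 and Myh7 0.55 for exercise against control. For all treated groups against control Myh6 was -0.66 and Myh7 0.12. The log2 Myh7 to Myh6 ratio then differed by 0.69 for isoproterenol, 0.67 for canagliflozin, 1.08 for exercise and 0.83 for all treated groups against control, and by 0.38 for exercise against isoproterenol. With all libraries kept, counts summed over each group gave a ratio difference of 0.0796 for isoproterenol against control. The cause of these changes was not tested.

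Leaving out 1 library at a time, the difference in log2 ratio ran from -3.48 to 1.45 for isoproterenol, -4.26 to 0.67 for canagliflozin, -3.86 to 1.08 for exercise and -3.87 to 1.07 for all treated groups against control, from -0.92 to 0.38 for exercise and -1.33 to -0.02 for canagliflozin against isoproterenol, and from -0.0598 to 0.70 for exercise against canagliflozin. The F statistic over 4 groups ran from 0.336 to 5.73. In the same way the estimates ran from -1.04 to 2.11 for Myh6 and -1.36 to 0.43 for Myh7 (isoproterenol against control), -0.36 to 0.0930 for Nppb, -0.16 to 0.66 for Myh6 and -0.11 to 0.75 for Acta1 (canagliflozin against isoproterenol), -0.12 to 0.58 for Myh7 (exercise against isoproterenol) and -0.15 to 0.68 for Myh6 (exercise against canagliflozin). Against control they ran from -1.39 to 0.16 for Nppa and -0.69 to 2.47 for Myh6 with canagliflozin, from -0.59 to 0.73 for Nppa, -0.56 to 0.23 for Nppb, -0.52 to 2.63 for Myh6 and -1.22 to 0.56 for Myh7 with exercise, and from -0.75 to 2.40 for Myh6 and -1.50 to 0.28 for Myh7 with all treated groups. The number of correlated pairs, 0 of 10 at an adjusted p under 0.05, was 2 with group means removed, where the p-values may be too small, and ran from 0 to 2 without 1 library. Counting error is small beside the spread between libraries, since the lowest count of any of the 5 genes was 2711.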
